A study of Mus musculus with 8 samples.

Results

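Gene deserts are stretches of a chromosome that hold no protein-coding gene. The peaks described here are those of H3R17me2a, asymmetric dimethylation of arginine 17 of histone H3, whose summit lay outside every protein-coding gene and 500 kb or more from the nearest one. Distances were taken to NCBI RefSeq gene spans of GRCm38, the assembly of the build mm10, on chromosomes 1 to 19. Of 33112 autosomal peaks in 4 deposited lists, 3074 met this rule, and the lists held 36243 peaks in all. The rule used position only, so the number, strength and recurrence of these peaks were free to vary.

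H3R17me2a is written by Carm1 (also called Prmt4), an arginine methyltransferase that acts as a transcriptional coactivator, and the mark is known from promoters and enhancers of active genes. Gene deserts are generally AT-rich and poor in open chromatin, and much of their sequence replicates late and lies at the nuclear lamina. Some of them nevertheless hold long-range enhancers, in particular where they flank genes for developmental transcription factors.

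All mice carried floxed Carm1 alleles (Carm1fl/fl) and were injected with an adeno-associated virus (AAV) on postnatal day 1. Knockout hearts received AAV-CRE, which delivers the recombinase that deletes the floxed gene, and control hearts received AAV-GFP; the control titles read WT although the genotype given is Carm1fl/fl. Each group had 2 ChIP libraries, and 4 input libraries have no peak list of their own. Per the labels the hearts were mosaic, cardiomyocyte nuclei were enriched by sorting for PCM1, and chromatin was cut with micrococcal nuclease. The age at harvest is not given in the labels used here, nor do they say if the libraries of a group are separate animals. Every p-value therefore rests on the spread from library to library, which may be technical. Peak lists carry no measure of Carm1 itself or of cell type markers, so neither the deletion nor the sort was checked here. In sorted nuclei of mosaic hearts, fewer cells with a mark and less mark per cell cannot be told apart.

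The 4 lists differed in length. On the autosomes, control 1 and control 2 held 11862 and 8002 peaks and knockout 1 and knockout 2 held 4563 and 8685, and these numbers overlapped between the groups, since knockout 2 lay between the control libraries. Fold enrichment is the authors' ratio of summit signal to local background, and its size was compared only within a list. The fragment number at a summit and its local background were recovered from the deposited fold and p-value by solving both together, and a whole fragment number was recovered for all 3074 desert peaks.

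The rule marked 249 deserts with a total length of 201 Mb, or 8.38% of the 2404 Mb of autosome considered. The median length was 0.493 Mb, 72 deserts measured 1 Mb or more, and the longest, between the protocadherin genes Pcdh20 and Pcdh9 on chromosome 14, measured 3.54 Mb. These lengths leave out the 500 kb next to each flanking gene. Of the 249 deserts, 123 held a peak in every library and 27 held none in any. These 27 added up to only 2.24 Mb, and the longest of them, 0.316 Mb, lay between Cdh11, a cadherin of mesenchymal cells, and Cdh5, the endothelial cadherin.

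H3R17me2a peaks were found in the deserts in every library, at densities similar to those elsewhere. Control 1 had 1140 desert peaks, control 2 had 753, knockout 1 had 383 and knockout 2 had 798. This corresponded to 5.66, 3.74, 1.90 and 3.96 peaks per Mb of desert, in the same order. The rest of the autosomes held 4.87, 3.29, 1.90 and 3.58 peaks per Mb. Desert density was thus the higher of the pair in control 1, control 2 and knockout 2, and nearly equal to the rest in knockout 1.

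The ratio of desert density to the rest was 1.16 in control 1 (95% interval 1.09 to 1.24), 1.14 in control 2 (1.05 to 1.22), 1.00 in knockout 1 (0.900 to 1.11) and 1.11 in knockout 2 (1.03 to 1.19). These intervals cover counting error only. On the log2 scale the mean ratio was 0.14 ± 0.09 (SD, n = 4 libraries) and above 0 in 4 of 4 libraries, with p = 0.13 in an exact two-sided sign-flip permutation test, the smallest p that 4 libraries allow. The direction depended on what the deserts were set against. Inside protein-coding genes the density was 3.59, 2.54, 1.45 and 2.76 peaks per Mb, the lowest of the 3 classes in every library. Outside genes but under 500 kb from one, it was 5.90, 3.90, 2.26 and 4.24 peaks per Mb. Against this other intergenic sequence, a comparison added after the data were seen, the desert ratio was 0.959, 0.958, 0.840 and 0.934. Its mean log2 was -0.12 ± 0.09 (SD, n = 4), below 0 in 4 of 4 libraries (exact sign-flip permutation p = 0.13, two-sided). With only peaks of a −log10 q of 5 or more, the ratio to all other autosomal sequence was 1.05, 0.942, 0.788 and 0.947, so that only control 1 stayed above 1, with a mean log2 of -0.11 (exact sign-flip permutation p = 0.25).

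**Figure D1:**
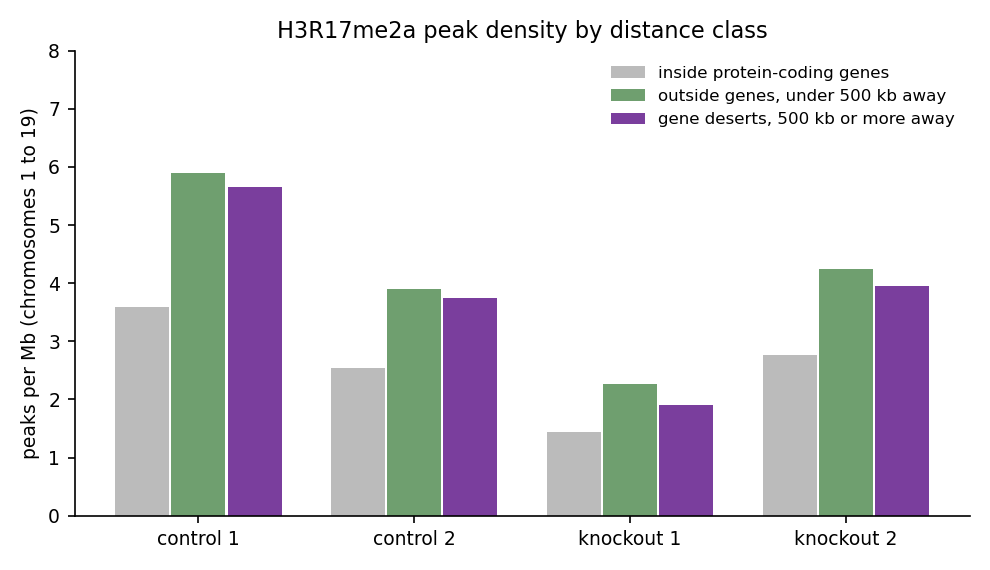
Bars give the number of H3R17me2a peaks per Mb of chromosomes 1 to 19 in each ChIP library, by position of the summit: inside protein-coding genes, outside them but under 500 kb away, or in a gene desert. In all 4 libraries the desert bar stands above the bar for genes and slightly below the bar for other intergenic sequence.

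Within the deserts, density did not fall steadily with distance from genes. Summits 500 kb to 1 Mb from a gene had densities of 5.52, 3.62, 1.79 and 4.09 per Mb in control 1, control 2, knockout 1 and knockout 2, and summits 1 Mb or more away had 5.94, 3.97, 2.13 and 3.70 per Mb. The deeper class was higher in both controls and in knockout 1, and lower in knockout 2. The median distance of a desert summit from its nearest gene was 803, 803, 818 and 772 kb, and the farthest summit lay 2252 kb away, in control 1. Just outside the threshold, from 450 to 500 kb, the densities were 5.22, 3.38, 1.65 and 3.18 per Mb, and just inside it, from 500 to 550 kb, they were 6.23, 3.68, 1.56 and 4.28 per Mb.

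**Figure D2:**
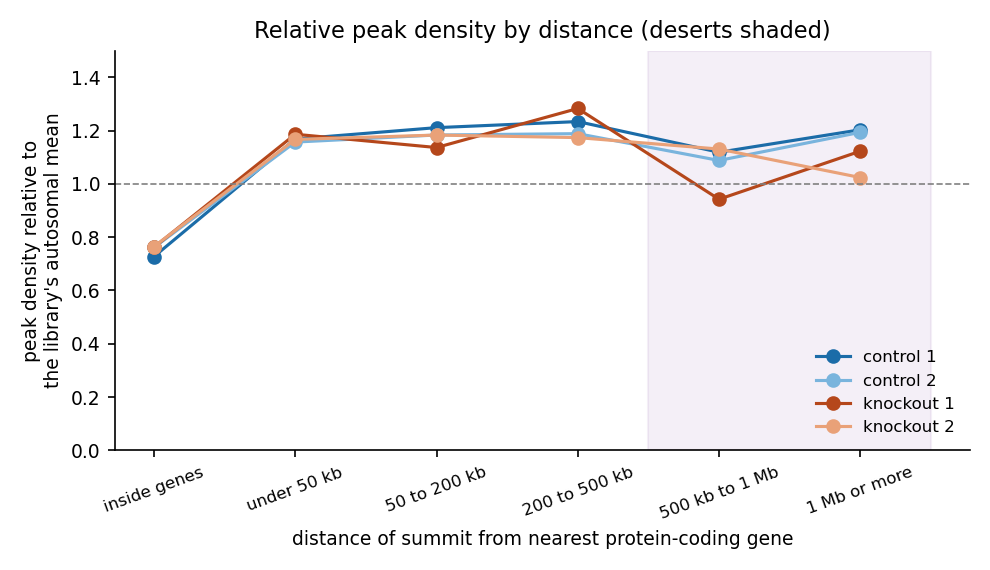
Each line follows 1 ChIP library over bands of distance from the nearest protein-coding gene, and the vertical axis gives peak density divided by that library's mean over chromosomes 1 to 19. All 4 libraries rise from 0.727 to 0.765 inside genes to between 1.16 and 1.19 within 50 kb of a gene, and in the shaded desert bands they range from 0.942 to 1.20.

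Knockout and control libraries were compared by the share of their peaks that fell in deserts, since their lists differed in length. The share was 9.61% in control 1 (95% Clopper-Pearson interval 9.09 to 10.2), 9.41% in control 2 (8.78 to 10.1), 8.39% in knockout 1 (7.60 to 9.24) and 9.19% in knockout 2 (8.59 to 9.82). Both control shares lay above both knockout shares, with 9.51% ± 0.14 (SD, n = 2) in control and 8.79% ± 0.56 (n = 2) in knockout. The difference of -0.72 percentage points had p = 0.33 in an exact two-sided permutation test, the smallest p that 2 libraries against 2 allow. The log2 ratio of desert to other density was 0.20 ± 0.02 in control and 0.07 ± 0.10 in knockout (n = 2 each), a difference of -0.13 (exact permutation p = 0.33). Most of the gap came from knockout 1, the library with the fewest peaks: without it the share difference was -0.322 points and the log2 difference -0.05, while without knockout 2 they were -1.12 points and -0.20.

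The medians of width and strength of desert peaks lay close to those of other peaks. Their median width was 295.5, 296, 299 and 300 bp in control 1, control 2, knockout 1 and knockout 2, beside 298, 292, 301 and 301 bp for other autosomal peaks. The median fold enrichment was 5.68, 5.44, 5.54 and 5.61 in deserts, beside 5.69, 5.44, 5.54 and 5.71 elsewhere, and the median summit held 7, 7, 8 and 7 fragments in both classes. Of 5 such measures, also −log10 q and local background, the smallest unadjusted p in an exact sign-flip permutation test over the 4 libraries was 0.5, and the Benjamini-Hochberg adjusted p was 1 for each.

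Strong summits made up a lower share of desert peaks than of other peaks in every library, at the smallest p that the design allows. Summits with 15 or more fragments made up 1.84% of desert peaks in control 1 (21 peaks) and 1.46% in control 2 (11). The knockout libraries had 3.66% (knockout 1, 14 peaks) and 1.504% (knockout 2, 12 peaks). Among other autosomal peaks the share was 4.41%, 5.30%, 8.33% and 4.33%, so that deserts held the lower share in every library. The mean difference was -3.47 ± 0.97 percentage points (SD, n = 4; exact sign-flip permutation p = 0.13, two-sided, the smallest possible). This measure was chosen after the data were seen. Against other intergenic peaks, of which 3.88%, 5.26%, 8.12% and 4.49% reached 15 fragments, the mean difference was -3.32 ± 1.05 points, again below 0 in 4 of 4 libraries. With a minimum of 10 fragments the mean difference from all other autosomal peaks was -5.56 points, and with a minimum of 20 it was -1.86 points, each below 0 in all 4 libraries.

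No desert peak reached a 100-fold enrichment, among 1140, 753, 383 and 798 in control 1, control 2, knockout 1 and knockout 2. Such peaks were also rare elsewhere, with 16 of 10722, 16 of 7249, 13 of 4180 and 13 of 7887 other autosomal peaks. With numbers this small, no difference was tested. The 99th percentile of fold enrichment was 11.3, 10.2, 9.44 and 10.2 in deserts, below the 14.3, 13.0, 12.7 and 13.9 of other peaks in the same libraries. Wide peaks, of 800 bp or more, made up 2.54%, 1.59%, 2.87% and 2.63% of desert peaks, beside 3.31%, 2.50%, 3.37% and 3.42% of the others. The mean difference in wide peaks was -0.741 ± 0.170 points (SD, n = 4; below 0 in 4 of 4 libraries, exact sign-flip permutation p = 0.13). The share of wide peaks was not a planned measure, and its p-value was not adjusted.

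**Figure D3:**
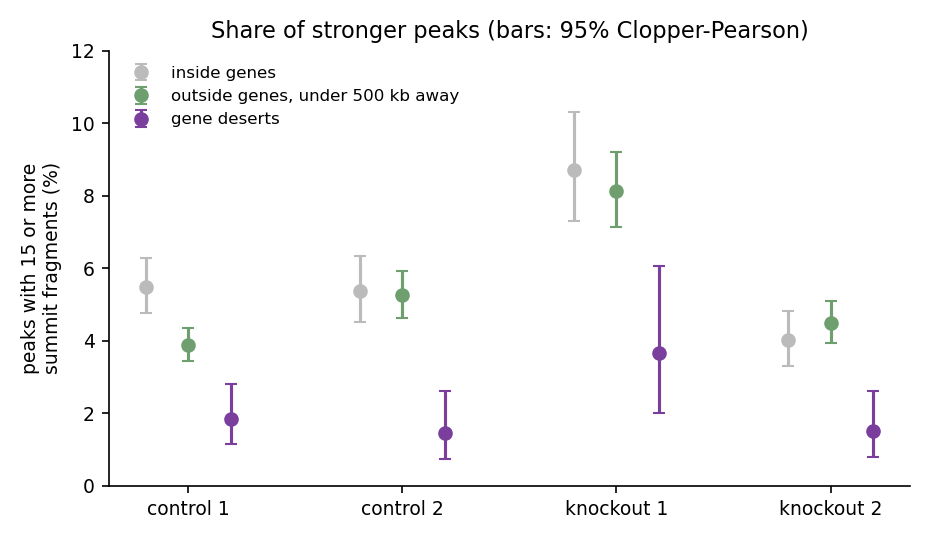
Points give the percentage of a library's peaks whose summit held 15 or more fragments, by position of the summit, with 95% Clopper-Pearson intervals that cover counting error only. The desert share, from 1.46% to 3.66%, is the lowest of the 3 classes in each library, and its interval overlaps neither of the others.

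The share of desert peaks found again in another library differed from that of other peaks by less than the spread between libraries. A peak was counted as recurrent when it overlapped a peak of another library by at least 1 bp. This was so for 27.4% and 30.8% of desert peaks in control 1 and control 2 and for 49.1% and 34.2% in knockout 1 and knockout 2. Among other autosomal peaks it was so for 28.6%, 31.7%, 45.8% and 33.7%. Deserts were lower in both controls and higher in both knockouts, with a mean difference of 0.445 ± 2.03 points (SD, n = 4; above 0 in 2 of 4 libraries, exact sign-flip permutation p = 0.875). Between the groups this difference was -1.02 ± 0.24 points in control and 1.91 ± 1.93 in knockout (n = 2 each; exact permutation p = 0.33, the smallest possible). With lists of equal length this split by group was lost. In control 1, control 2, knockout 1 and knockout 2, 39.3%, 33.2%, 36.8% and 34.5% of desert peaks then recurred. Among other peaks it was 38.5%, 33.9%, 36.5% and 37.5%.

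Recurrence rose with the strength of the peak, in the deserts as elsewhere. Of desert summits with 6 or fewer fragments, 12.1%, 18.0%, 17.1% and 19.02% recurred in control 1, control 2, knockout 1 and knockout 2. With 10 to 14 fragments the shares were 59.8%, 51.9%, 72.8% and 60.9%, and with 15 or more they were 71.4%, 63.6%, 78.6% and 66.7%, the last class resting on 21, 11, 14 and 12 peaks. When 5 such bands of fragment number were weighted equally, the difference between desert and other peaks was 1.90, -1.60, 3.41 and 1.14 points, a mean of 1.21 ± 2.10 (SD, n = 4; exact sign-flip permutation p = 0.375).

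**Figure D4:**
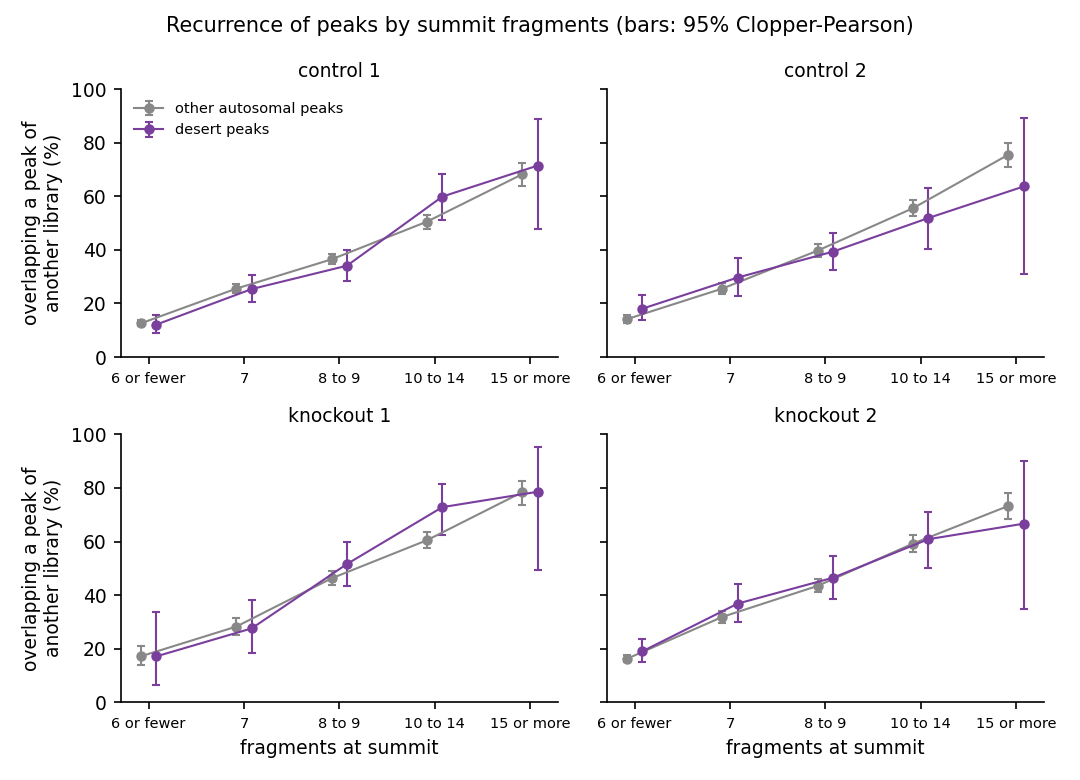
Each panel shows 1 ChIP library, with summit fragments on the horizontal axis and the percentage of peaks that overlapped a peak of another library on the vertical axis, for desert peaks and for other autosomal peaks; bars are 95% Clopper-Pearson intervals. In all 4 panels the share climbs from under 20% in the weakest band to over 60% in the strongest, and the intervals of the 2 classes overlap in every band.

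Merging the peaks of all lists gave 2469 desert regions among 26481 autosomal ones. Of the desert regions, 2069 were called in 1 library, 258 in 2, 96 in 3 and 46 in all 4. Called in 2 or more libraries were 400 desert regions, or 16.2%, beside 16.2% of all autosomal regions. Called in all 4 libraries were 1.86%, beside 1.96% of all autosomal regions. The median width of a desert region was 277 bp for those called in 1 library and 978.5 bp for those called in all 4. Other autosomal regions had 277 and 954 bp. A merged region spans all of its peaks, so regions built from more lists are wider by construction.

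The counts for pairs of libraries of 1 group lay among those for mixed pairs. Both controls and neither knockout called 55 desert regions, or 2.23%, beside 2.45% of all autosomal regions. Both knockouts and neither control called 27, or 1.09%, beside 1.11%. Of the mixed pairs, control 1 with knockout 2 alone shared 77 desert regions, control 2 with knockout 2 shared 43, control 1 with knockout 1 shared 39 and control 2 with knockout 1 shared 17. In this order these were 3.12%, 1.74%, 1.58% and 0.689% of desert regions, beside 3.25%, 1.55%, 1.54% and 0.775% of other autosomal regions. The 6 pairs thus stood in the order of the product of their list lengths, with control 1 and knockout 2, the longest lists, sharing most and control 2 and knockout 1, the shortest, least. No test of a genotype difference in these counts, or of an effect of list length on them, was made.

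The 46 regions called in all 4 libraries lay in 39 deserts on 15 chromosomes. They are described below by the protein-coding genes on either side, in mm10 coordinates, and the 10 named are those whose weakest −log10 q ranked highest within its list. By the rule that selected them, none overlaps a protein-coding gene. Their sequences were not used here.

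The highest-ranked region lay between Lrrc4c, which encodes the synaptic adhesion protein netrin-G ligand 1, and Iftap, on chromosome 2 from 98666283 to 98667327. Its summits held 37332 and 42101 fragments in the controls and 46723 and 35646 in the knockouts, the highest numbers among all desert peaks. Its fold enrichment was only 11.9, 10.3, 11.3 and 15.5, with a local background of 3133, 4072, 4120 and 2294 fragments. A second region of the same desert, from 98662237 to 98662959, had 3356, 3840, 4319 and 3211 fragments at fold enrichments of 5.00, 4.35, 4.86 and 6.23. Another region with a raised background lay between Lratd1 and Trib2, the gene of a pseudokinase, on chromosome 12 from 15253566 to 15253953. It had 36, 47, 60 and 39 fragments and fold enrichments of 5.51, 5.83, 5.30 and 5.87. The summits of the first region fell on the same base in all 4 lists, and those of the other two within 4 and 42 bp. Only these 3 of the 46 regions had a local background of 5 fragments or more. The part of the background in their peaks was not tested.

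The other 7 named regions had local backgrounds under 5 fragments. Between Pou3f2, a POU-domain factor of neural development, and Mms22l, which acts in replication fork repair, a region on chromosome 4 from 23288781 to 23289775 had fold enrichments of 10.7, 7.48, 8.08 and 10.7 in control 1, control 2, knockout 1 and knockout 2. It overlaps the long non-coding RNA gene Gm38450. On chromosome 18, the region between Eno1b and Dtwd2 had 7.80, 7.17, 8.60 and 8.35. Between Mdga2, a regulator of synapse formation, and the ribosomal protein gene Rps29, the region on chromosome 12 from 68406806 to 68407944 had 10.3, 7.07, 9.33 and 8.44. Each was called with 10 to 15 fragments at the summit in every library.

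The Trim52-Slitrk1 region, beside a gene for a neuronal transmembrane protein, lay on chromosome 14 from 106964171 to 106965544 and had fold enrichments of 7.54, 7.27, 6.11 and 9.60. The region between the zinc transporter gene Slc39a10 and Tmeff2 lay on chromosome 1 from 48546055 to 48547325 and had 6.50, 6.06, 6.83 and 10.2. Between Zeb2, a zinc-finger repressor, and Acvr2a, an activin receptor, the region on chromosome 2 from 46281719 to 46282436 had 27.7, 6.12, 7.93 and 10.02, and the 27.7 of control 1 was the highest fold enrichment of any desert peak. The region between Lcorl and Slit2, an axon guidance ligand, lay on chromosome 5 from 46458590 to 46459415 and had 7.03, 6.16, 6.36 and 5.96. In these 7 regions the summits of the 4 lists lay 147 to 878 bp apart.

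Regions called in 1 of the groups alone had lower median folds than those called in all 4. Since recurrence rose with peak strength, classes chosen by the number of calls differ in fold by construction, so this order is no separate result. For the controls-only class the median was 5.73 in control 1 and 5.44 in control 2, beside 7.14 and 6.03 for regions called in all 4. For the knockouts-only class it was 5.60 in knockout 1 and 5.85 in knockout 2, beside 6.21 and 6.28. Of the 55 called in both controls alone, the first by the same rank lay between D3Ertd751e and Pcdh10, a protocadherin gene, on chromosome 3 from 44247323 to 44247862, with fold enrichments of 9.96 in control 1 and 8.84 in control 2. The Brinp3-Pla2g4a region, beside the gene of cytosolic phospholipase A2, lay on chromosome 1 from 148722855 to 148723663 and had 8.32 and 13.6. The next lay between Nectin3 and Gm52257 (7.17 and 7.83), Snx16 and Ralyl (6.76 and 8.84), and Olfm4 and Pcdh17 (6.61 and 7.48). Their summits held 9 to 19 fragments.

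Of the 27 called in both knockouts alone, the first lay between Gm4868 and Tmem132c on chromosome 5 from 126362486 to 126362830, with fold enrichments of 6.87 in knockout 1 and 7.85 in knockout 2. The second lay in the Zeb2-Acvr2a desert, which also held a region called in all 4 libraries, on chromosome 2 from 45930436 to 45930941, with 8.29 and 8.14. The next lay between Gm15501 and the teneurin gene Tenm4 (8.08 and 10.9), Dsel and Cntnap5a (7.27 and 7.66), and Gm40892 and Flrt2 (6.55 and 8.05). A region called in 1 group alone held a median of 7 fragments at its weaker summit, in either class, beside 8 at the weakest summit of regions called in all 4. The first is the lower of 2 lists and the second the lowest of 4, so they are not like measures.

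Single deserts differed in how many regions they held. Over the 72 deserts of 1 Mb or more, the number of regions per Mb ranged from 5.24 to 23.2 with a median of 12.3. The top of that range was the desert between Pcdh7, a protocadherin gene, and G6pd2 on chromosome 5, with 62 regions in 2.68 Mb where the controls had 30 and 15 peaks and the knockouts 11 and 21. Next by number came Dsel-Cntnap5a on chromosome 1 (52 regions), Tenm3-Aga on chromosome 8 and Celf4-Pik3c3 on chromosome 18 (46 each), and Lrrc4c-Iftap (45). The longest desert, Pcdh20-Pcdh9, held only 23 regions, or 6.49 per Mb, with 11, 6, 2 and 6 peaks. Of the others among the 5 longest, Celf4-Pik3c3 (3.51 Mb) held 13.1 regions per Mb, Olfm4-Pcdh17 (3.42 Mb) 12.6, Cntnap5b-Cdh20 (3.28 Mb) 10.1 and Tenm3-Aga (2.99 Mb) 15.4.

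Regions called in 2 or more libraries were most numerous in Dsel-Cntnap5a, Pcdh7-G6pd2 and Olfm4-Pcdh17, with 10 each, followed by Lrrc4c-Iftap and Cox7c-Edil3 on chromosome 13, with 9 each. Olfm4-Pcdh17 had 22, 14, 9 and 14 peaks and Cox7c-Edil3 had 21, 12, 6 and 9. Across the 72 long deserts, the peaks per Mb of any pair of libraries correlated with Pearson coefficients between 0.425 and 0.554. The coefficient was 0.436 for the control pair and 0.431 for the knockout pair, so that libraries of 1 group were no more alike than libraries of different groups. These coefficients describe 72 deserts whose libraries share a mappability and base composition that were not measured, and no p-value is given.

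**Figure D5:**
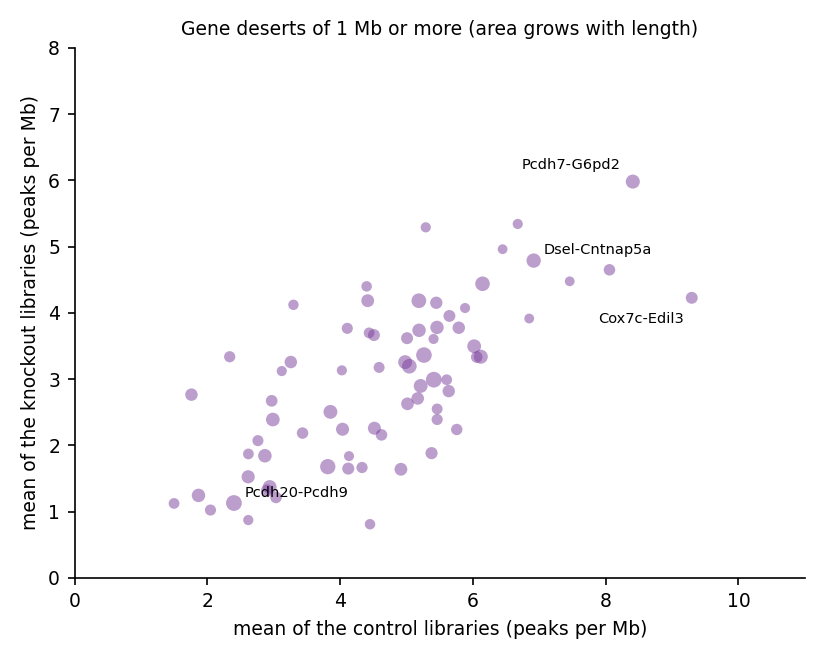
Each circle is 1 of the 72 deserts of 1 Mb or more, placed by its mean peaks per Mb in the control libraries (horizontal) and in the knockout libraries (vertical); its area grows with its length. Pcdh7-G6pd2 lies highest on the knockout axis and Pcdh20-Pcdh9, the longest desert, lies near the lower left corner.

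The genes on the desert borders were counted on lists of cardiac, developmental and cell adhesion genes, chosen with earlier results of these data known. Only 457 of 20558 autosomal protein-coding genes, or 2.22%, border a desert. Of 47 genes for adhesion molecules and synapse organisers, 30 do, and 26 of the 30 border a desert with a region called in 2 or more libraries, beside 268 of all 457 bordering genes. Regions called in all 4 libraries lay in deserts beside 8 of these 30 genes, beside 76 of all 457 bordering genes: Cdh2, Cdh6, Cdh9, Pcdh7, Pcdh17, Slitrk1, Cntnap5a and Epha7. Cdh2 encodes N-cadherin, the cadherin of the cardiomyocyte intercalated disc, and the Cdh2-Dsc3 desert of 2.15 Mb held 13 and 6 peaks in the controls and 3 and 15 in the knockouts. The Cdh6-Cdh9 desert between 2 classical cadherin genes held 9, 6, 2 and 5, and the Epha7-Map3k7 desert beside an ephrin receptor gene held 8, 5, 5 and 8. These are raw counts from lists of unlike length, so they were not compared between the groups. The lengths of the deserts beside these genes were not matched, so the counts describe them and test nothing.

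Of 38 autosomal developmental transcription factor genes, 13 border a desert, and 3 of them, Pou3f2, Nr2f1 and Zeb2, border one with a region called in all 4 libraries, a count to be read against the 76 of 457 for bordering genes in general. The Zeb2-Acvr2a desert held 16, 17, 5 and 13 peaks, Pou3f2-Mms22l held 10, 3, 2 and 8, and the desert between the orphan nuclear receptor gene Nr2f1 and Arrdc3 held 7, 3, 4 and 5. Of 21 cardiac transcription factor genes, 3 border a desert, Mef2c and Isl1 among them, and none borders a desert with a region called in all 4 libraries. The Cetn3-Mef2c desert held 4, 1, 1 and 1 peaks, and the Itga1-Isl1 desert held 2 in control 1 and none in the others. None of 12 sarcomere genes borders a desert. Among markers of other heart cells, none of 8 fibroblast genes does, 1 of 8 endothelial genes does (Cdh5, whose desert held no peak) and 1 of 6 macrophage and immune genes does (Ptprc, with 1 peak in control 2).

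Desert summits fell in non-coding genes at about the share of the desert length that these genes cover. Spans of long non-coding RNA genes covered 6.74% of the desert length and held 5.09%, 6.37%, 5.22% and 6.89% of desert summits in control 1, control 2, knockout 1 and knockout 2. Non-coding genes of any kind covered 9.85% and held 8.60%, 8.90%, 7.31% and 10.4%. Of 231 annotated starts of non-coding genes in the deserts, taken from 250 bases before to 50 after the start, none overlapped a peak of any library, beside 80 of 31165 other gene starts (0.257%). A count of 0 in 231 allows a share of up to 1.30%, so these counts show no difference. A peak within 2 kb was found for 5 of the 231.

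Variable segments of antigen receptor genes, which RefSeq does not class as protein-coding, and their pseudogenes fill parts of some deserts. Adam6a-Zfp386 on chromosome 12, with 115 immunoglobulin heavy chain segments, had 9, 4, 1 and 4 peaks, and Gm36448-Dad1 on chromosome 14, with 72 T cell receptor segments, had 2, 1, 0 and 2. Knockout 1 was the lowest library in both. It was also the shortest list, and no difference was tested.

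The chromosomes were not alike. The ratio of desert density to the rest of the same chromosome was above 1 on 16, 13, 11 and 12 of the 19 autosomes in control 1, control 2, knockout 1 and knockout 2, and on 7 chromosomes in all 4 libraries. Chromosome 6 was the lowest in 3 libraries, with 0.683 in control 1, 0.661 in control 2 and 0.403 in knockout 1. The share of desert peaks with a close neighbour in the same library was slightly lower than that of other peaks in 4 of 4 libraries. A neighbour within 10 kb was found for 37.9%, 23.5%, 16.2% and 27.7% of desert peaks, beside 38.1%, 24.5%, 19.8% and 28.5% of the others, a mean difference of -1.41 ± 1.495 points (SD, n = 4; exact sign-flip permutation p = 0.13, the smallest possible). This difference was largest in knockout 1. The share with a close neighbour was not a planned measure, and its p-value was not adjusted. The median distance to the nearest peak was 35.7, 73.0, 167 and 60.1 kb for desert peaks and 35.6, 76.1, 135 and 62.8 kb for the others, so that by this measure deserts were the wider spaced in control 1 and knockout 1 and the closer in control 2 and knockout 2.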

How the data were processed

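H3R17me2a ChIP-seq was done on 4 libraries of sorted mouse heart nuclei. The build named is mm10 and the tools named are Bowtie2, MACS2, DiffBind, FastQC and MultiQC, per the submitters' processing notes; no version is given in the sources used here. Of each ChIP library, the authors deposited 1 peak list, without pooling replicates. The deposited columns hold a score, the fold enrichment (a ratio of summit to local background), its −log10 p and −log10 q, and the summit position; no read depth is given, so list length alone shows how much was called.

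Fragment number and local background were solved from fold and Poisson p-value, with a tolerance of 0.01 in −log10 p (at least 99.9% of peaks whole, 12 autosomal peaks not). For very strong peaks the tolerance was wider and grew in proportion to −log10 p. RefSeq gave 20558 protein-coding spans, after 333 rows, 107 of them protein-coding, were left out because the start coordinate restarts within their chromosome's block. Of these rows, 328 start in the unassembled first 3 Mb, where no other row lies; keeping them left the same 249 deserts and 3074 peaks. Chromosomes were measured from base 3000001, after the unassembled proximal sequence, to the last gene or peak. Peaks that overlapped by 1 bp were merged into regions; a region was a desert region when its summits were. Libraries were compared by exact permutation tests with Python 3.11.15, NumPy 2.4.6, SciPy 1.17.1 and pandas 2.3.3, and density ratios carry exact intervals at the 95% level that cover counting error. The scripts were tested on simulated peaks. Regions named are the 10 called in all 4 libraries, and the 5 called in both controls alone and in both knockouts alone, with the highest lowest-percentile of −log10 q; deserts named are the 5 longest, the 5 with most regions and the 5 with most recurrent regions, and listed genes beside regions called in all 4 libraries. Members, lists and rules were chosen with earlier results of these data known; deserts and genes named outside these rules (the antigen receptor deserts, Cdh11-Cdh5 and the genes bordering deserts on the cardiac lists) were chosen after their values were seen. Results for some deserts are not reported here.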

Additional observations from a re-analysis of the deposited data

How the results depend on the processing

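The difference of knockout from control kept its sign under every alternative run but not its size. In log2 density, -0.13 as reported, it ran from -0.04 with deserts from 250 kb and -0.06 without predicted genes to -0.75 with genes of every type. At a −log10 q of 5 or more it was -0.21 (exact permutation p = 0.67), but the groups then overlapped. The log2 ratio of knockout 2, -0.078, lay above the -0.086 of control 2. Knockout 1 had the lowest ratio at this limit, -0.345, from 81 desert peaks. The lower share of peaks with 15 or more fragments kept its sign under all of its 8. Desert density against the rest turned below 0 (mean log2) at a −log10 q of 5 or more (-0.11), with distance from genes of every type (-0.44), with the unassembled proximal sequence counted as length (-0.19) and against other intergenic sequence (-0.12); it stayed above 0 in the other 12. The cause was not tested, except that genes of every type left 12 deserts of 2.33 Mb with 25 peaks, and that unassembled sequence adds length without peaks. The recurrence difference rose to 2.76 points with deserts from 250 kb (above 0 in 4 of 4 libraries, exact sign-flip permutation p = 0.13, the smallest possible) and turned negative at a −log10 q of 5 or more (-3.31 points), with lists of equal length (-0.642), with deserts from 1 Mb (-0.956) and with genes of every type (-5.80), and ranged from -0.520 (without knockout 1) to 1.24 when 1 library was left out; it was also -0.03 without knockout 2.

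Regions called in all libraries, in 2 or more, in both controls alone and in both knockouts alone numbered 7, 109, 16 and 6 at a −log10 q of 5 or more, 107, 845, 114 and 65 with deserts from 250 kb, 14, 130, 22 and 11 with deserts from 1 Mb, and 0, 3, 1 and 1 with genes of every type. The first 3 of these counts were 29, 230 and 28 with lists of equal length, and 17 regions were called in all libraries with an overlap of 50% of both peaks. At a −log10 q of 5 or more, the 7 were 1.01% of 694 desert regions, beside 2.07% of 7495 other autosomal regions. The 109 were 15.7%, beside 17.9% of the others. Under the other settings only the counts are given, and they follow the length of desert and list used. With 1 library left out, 54 to 81 regions were called in all that were left and 227 (without control 1) to 315 in 2 or more; the classes of 1 group alone cannot then be given. At a −log10 q of 5 or more the median width of desert peaks exceeded that of others by 17 bp and the fragment number differed by -0.5. With 1 library left out, the width difference ranged from -1.83 to 0.33 bp and that in −log10 q from -0.060 to 0.

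With the replicate number as a block, the knockout difference was -0.13 in log2 density and -0.719 points in share (exact sign-flip permutation p = 0.5, the smallest possible). Same-numbered libraries showed no shared deviation (r = -0.04 over 249 deserts). Many deserts held few peaks in a library, so this value cannot show whether the numbers pair libraries. The block changed no call. No chromosome held over 15% of the desert length (chromosome 1 held most, 10.5%), so none was left out. The other intergenic comparator, the removal of local backgrounds of 5 or more or of antigen receptor deserts, the keeping of annotation rows with restarting coordinates (which moved none of the values recomputed) and the fragment minimums were added after seeing the data. With no read depth given, a desert region missed in a list cannot be told from a weak one. Of desert regions, 83.8% were called in 1 library only, as were 83.8% of other autosomal regions.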
